A study of Mus musculus with 6 samples.

Results

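The phagocyte NADPH oxidase is the enzyme with which macrophages and neutrophils make superoxide. The 7 genes described here encode its membrane, cytosolic and Rac subunits and the chaperone of its membrane core: Cybb, Cyba, Ncf1, Ncf4, Rac1, Rac2 and Cybc1. They were chosen by name, each matched 1 Ensembl gene, and they stand among the 55421 genes of the count table. All 7 passed the filter on low counts, which left 13588 genes. RNA was sequenced from 6 libraries of mouse macrophages that had been grown in culture from bone marrow progenitors. In the knockout group (3 libraries) both Tmem175 alleles are floxed and the cells carry 1 copy of Cre recombinase under Lyz2, the lysozyme gene active in myeloid cells; the genotype is also given as Tmem175-/-. In the WT group (3 libraries) the cells are wild type, and no library with Cre alone or with floxed alleles alone was analysed here. The effects of Cre, of its insertion in Lyz2 and of strain background therefore cannot be told apart from those of losing Tmem175, whose product conducts potassium and protons across lysosomal membranes. The libraries are described as wells, with no animals named: p-values here reflect only well-to-well spread, which may be technical. The labels give no age.

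As background, the oxidase is assembled only when a phagocyte is activated. Cybb (gp91phox, also called NOX2) is the catalytic subunit that passes electrons from NADPH to oxygen, and it is stable only as a heterodimer with Cyba (p22phox). Ncf1 (p47phox) is the organiser that, once phosphorylated, docks on Cyba, and Ncf4 (p40phox) binds a phosphoinositide of the phagosome membrane. A GTP-bound Rac completes the active enzyme: Rac2 is the form largely restricted to blood cells, while Rac1 is made in nearly all cells. Cybc1 (EROS, earlier symbol BC017643) is a chaperone of the endoplasmic reticulum that is needed for a normal amount of the Cybb and Cyba proteins. Loss of Cybb, Cyba, Ncf1, Ncf4 or Cybc1 function in humans causes chronic granulomatous disease or a closely related immunodeficiency.

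Total counts ranged from 25979430 to 31542741 in knockout and from 24179548 to 25916709 in WT libraries. Tmem175 stood at 14.3, 13.2 and 12.1 CPM (counts scaled to a common library size, with TMM factors) in knockout, against 32.8, 33.4 and 33.2 CPM in WT libraries. Lyz2 stood at 23166, 23691 and 26123 CPM in knockout, against 43932, 41780 and 49822 CPM in WT libraries, so both modified genes were lower in each knockout library. Over all genes, 14 of 13588 passed the test between genotypes at an adjusted p under 0.05, which is 0.103%. The macrophage markers Adgre1 (F4/80), Csf1r (the M-CSF receptor) and Cd68 were abundant in both genotypes: Csf1r averaged 4225 CPM in knockout and 4064 CPM in WT libraries, and Cd68 averaged 1352 CPM in knockout and 1350 CPM in WT libraries.

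The proximal promoters of Cybb, Ncf1 and Cyba are shown because Ncf1 and Cybb varied most between libraries among the 7 genes and Cyba least. RefSeq promoter windows on GRCm38.p6, 250 bases before to 50 after the annotated start, matched 4 of the 7 genes (Cybb, Cyba, Ncf1 and Cybc1). Capitals mark the 2 short motifs searched on both strands, GAGGAA (the core bound by PU.1, reverse TTCCTC) and CCAAT (reverse ATTGG), which do not overlap each other here. The windows are chrX:9469275-9469574, chr5:134229576-134229875 and chr8:122432891-122433190, all on the minus strand. The Cybb window lies at the start of its principal transcript in GENCODE M21, at position 9469324; another annotated coding transcript starts upstream, at 9487771, and its promoter is not shown.
Cybb: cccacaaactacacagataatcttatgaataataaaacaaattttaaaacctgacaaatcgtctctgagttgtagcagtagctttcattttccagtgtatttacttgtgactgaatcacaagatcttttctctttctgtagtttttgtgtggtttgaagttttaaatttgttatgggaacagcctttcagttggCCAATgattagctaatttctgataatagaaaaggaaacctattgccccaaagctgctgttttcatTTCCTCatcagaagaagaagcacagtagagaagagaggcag
Ncf1: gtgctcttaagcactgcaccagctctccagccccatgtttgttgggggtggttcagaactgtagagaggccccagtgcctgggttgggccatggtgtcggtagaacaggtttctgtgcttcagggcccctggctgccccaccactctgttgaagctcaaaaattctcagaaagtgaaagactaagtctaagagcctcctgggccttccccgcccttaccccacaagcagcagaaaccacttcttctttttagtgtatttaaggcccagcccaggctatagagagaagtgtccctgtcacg
Cyba: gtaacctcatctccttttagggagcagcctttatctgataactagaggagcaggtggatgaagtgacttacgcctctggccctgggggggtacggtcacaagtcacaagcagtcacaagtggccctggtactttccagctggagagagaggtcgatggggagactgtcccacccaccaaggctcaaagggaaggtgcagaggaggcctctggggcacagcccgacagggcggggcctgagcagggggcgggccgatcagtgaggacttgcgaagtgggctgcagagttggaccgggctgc
The Cybb window holds 1 CCAAT, at position -56 from the start, and 1 GAGGAA on the reverse strand, 9 bases past the start. The windows of Ncf1 and Cyba hold neither motif. Among 32851 windows of the same length, 28.3% hold GAGGAA and 37.4% hold CCAAT on either strand. These matches describe letters only and say nothing of which factors bind.

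No difference between knockout and WT macrophages was detected for any of the 7 oxidase genes. In edgeR's quasi-likelihood test none passed at an adjusted p under 0.05, beside 0.103% of all genes tested, and none reached an unadjusted p under 0.05, a level reached by 5.44% of all genes tested. The DESeq2 Wald test, which called 0.294% of all genes tested, and limma-voom, which called 0.110%, also called none of the 7 and gave none at an unadjusted p under 0.05. For none of the 7 did the knockout and WT libraries separate without overlap, as 10.8% of all genes tested did. Their log2 fold changes ran from -0.07 for Rac1 to 0.06 for Ncf1, 4 above and 3 below 0, with a median of 0.013 against -0.00090 over all genes tested.

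Of the membrane pair, Cybb was the most abundant of the 7 in counts, at position 26 of 13588 genes by mean CPM. Cybb stood at 2268, 2520 and 2451 CPM in knockout, against 2316, 2241 and 2880 CPM in WT libraries. The knockout libraries all lay within the WT range, which WT replicate 3 alone extended upward. The fitted fold of Cybb was 0.973, with a 95% interval of 0.845 to 1.12 (adjusted p = 0.979, edgeR). Its partner Cyba stood at 847, 771 and 794 CPM in knockout, against 802, 806 and 783 CPM in WT libraries. Those WT values sat inside the knockout range, and Cyba was the steadiest of the 7, with a highest library only 1.10 times its lowest. Its fold was 1.01, with an interval of 0.935 to 1.09 (adjusted p = 0.987, edgeR).

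Of the cytosolic subunits, the organiser Ncf1 stood at 403, 521 and 507 CPM in knockout, against 414, 419 and 538 CPM in WT libraries. Both genotypes held low and high libraries: knockout replicate 1 and WT replicates 1 and 2 were at 419 CPM or below, and the other 3 at 507 CPM or above. Its fold was 1.04, and its interval of 0.869 to 1.25 was the widest of the 7 (adjusted p = 0.979, edgeR). Ncf4 stood at 157, 181 and 177 CPM in knockout, against 164, 165 and 173 CPM in WT libraries. Here too the knockout range enclosed all WT values. Its fold was 1.02, with an interval of 0.936 to 1.12 (adjusted p = 0.979, edgeR).

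Of the GTPases, Rac1 stood at 372, 352 and 374 CPM in knockout, against 402, 361 and 386 CPM in WT libraries. The groups overlapped, although Rac1 had the smallest p of the 7. Its fold was 0.955, with an interval of 0.881 to 1.04 (adjusted p = 0.968, edgeR). Rac2 stood at 519, 522 and 571 CPM in knockout, against 490, 536 and 566 CPM in WT libraries. The fold of Rac2 was 1.01, with an interval of 0.917 to 1.12 (adjusted p = 0.984, edgeR). The chaperone gene Cybc1 had the lowest level of the 7, at 101, 90.1 and 97.5 CPM in knockout, against 93.2, 98.1 and 100.4 CPM in WT libraries. Its fold was 0.990, with an interval of 0.909 to 1.08 (adjusted p = 0.987, edgeR). With intervals this narrow, a change of the size measured for Tmem175 or Lyz2 lies outside the interval of each of the 7, and smaller changes within the intervals could not be resolved with 3 wells per genotype.

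**Figure D1:**
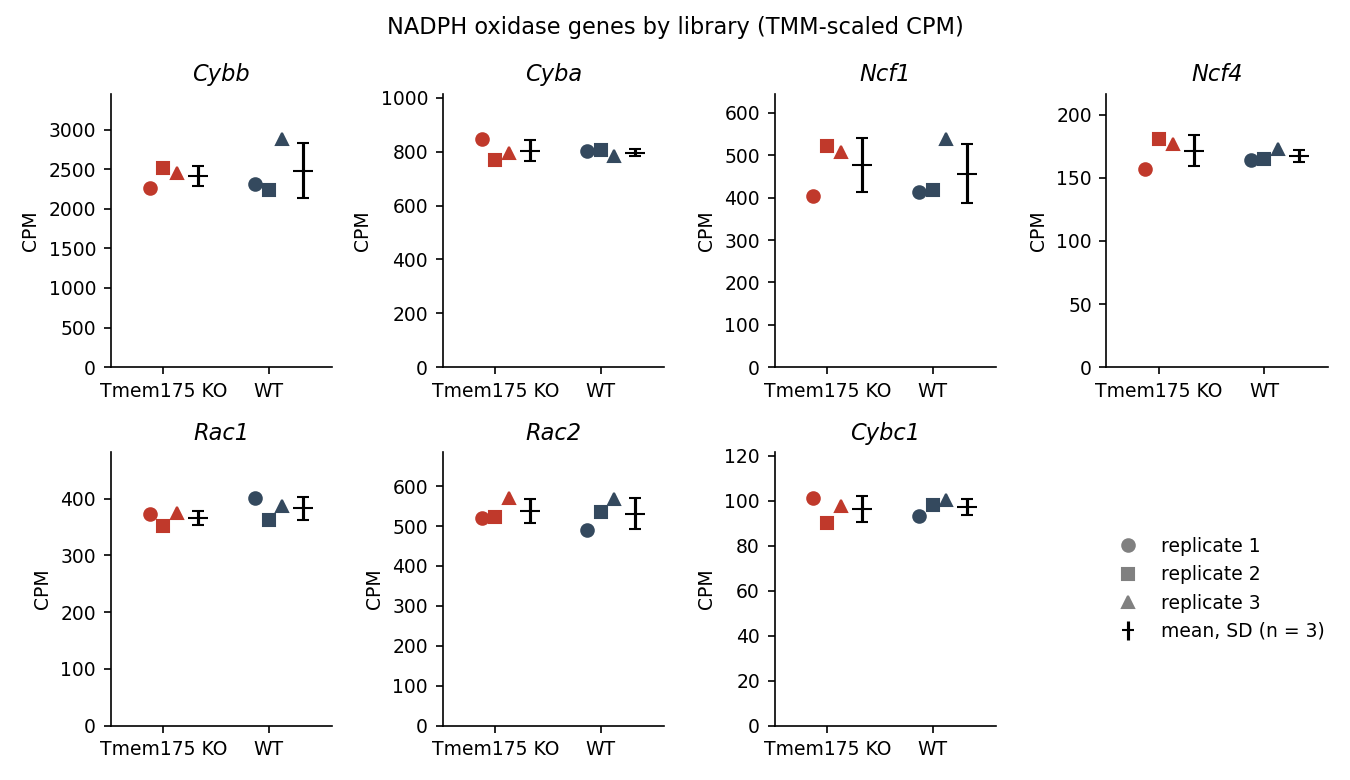
TMM-scaled CPM of each oxidase gene (y axis, from 0) in 3 Tmem175 knockout and 3 WT libraries; marker shape gives the replicate number, and the bars give mean and SD. The genotypes overlap in all 7 panels, and WT replicate 3 is the highest point for Cybb (2880 CPM) and Ncf1 (538 CPM).

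**Figure D2:**
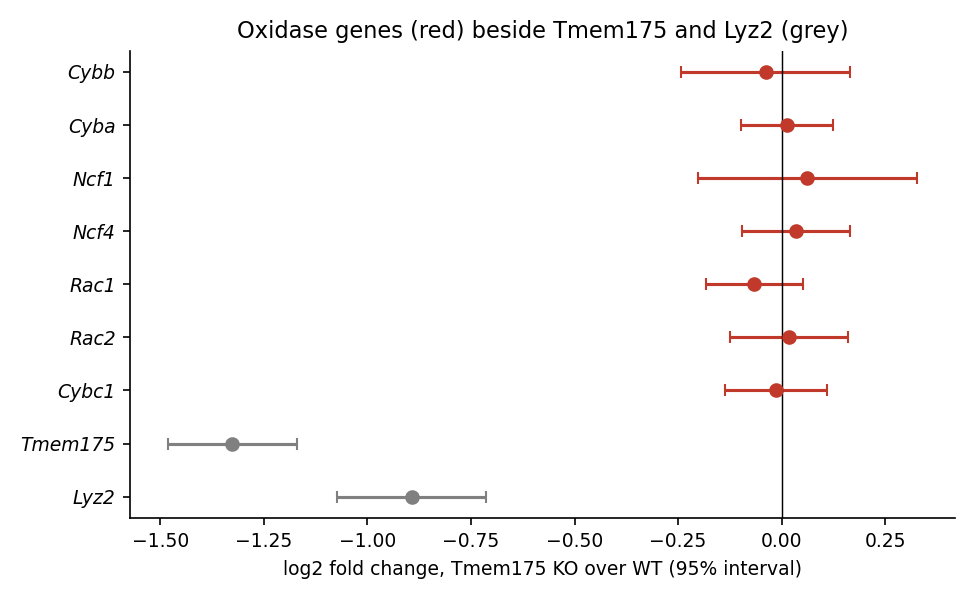
Fitted log2 fold change of knockout over WT (x axis) with 95% intervals for the 7 oxidase genes in red and for Tmem175 and Lyz2 in grey. The 7 red intervals all cross 0, while Tmem175 (-1.33) and Lyz2 (-0.89) lie far to the left.

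Levels of different genes were compared per length, as CPM per kb of annotated exon. By that measure the membrane pair led, and the chaperone gene was lowest. Cyba averaged 774 ± 37.3 CPM per kb in knockout and 767 ± 12.1 CPM per kb in WT libraries (SD, n = 3 each). Cybb followed at 415 ± 22.4 CPM per kb in knockout and 427 ± 60.1 CPM per kb in WT libraries. Although Cybb had more counts, its exons span 5808 bases and those of Cyba 1039. Rac2 came next at 173 ± 9.41 CPM per kb in knockout and 171 ± 12.4 CPM per kb in WT libraries. Ncf1 stood at 130 ± 17.6 CPM per kb in knockout and 125 ± 19.2 CPM per kb in WT libraries.

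Below these, Ncf4 averaged 84.9 ± 6.17 CPM per kb in knockout and 82.9 ± 2.36 CPM per kb in WT libraries. Rac1 averaged 81.4 ± 2.66 CPM per kb in knockout and 85.2 ± 4.50 CPM per kb in WT libraries. Ncf4 and Rac1 did not differ beyond their spread: Ncf4 was above Rac1 in 3 of 6 libraries. Every other pair of neighbours in this order kept its order in 6 of 6 libraries, down to Cybc1 at 22.9 ± 1.36 CPM per kb in knockout and 23.1 ± 0.869 CPM per kb in WT libraries. Over all 6 libraries the mean of Cyba was 33.5 times that of Cybc1.

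Part of this order rests on the length used. The same whole-gene counts were also divided by coding length. Cybb (1430 CPM per kb) and Cyba (1390 CPM per kb) were then nearly level and exchanged places. Rac1 moved to position 4 and Ncf4 to position 7, and the highest exceeded the lowest only 8.58 times. Rac1 shares 2309 of its 4496 exon bases with Daglb, a lipase gene on the opposite strand, and the strand setting of the counting is not given in the sources used here. Divided by the 2187 bases that belong to Rac1 only, its count gave 171 CPM per kb, beside Rac2 at 172 CPM per kb, and position 4. Reads were not recounted over those bases, so the count may hold reads from the shared ones. Ncf1 shares 408 exon bases with Gtf2ird2 and Cybc1 shares 68 with Hexdc, both on the opposite strand, and neither overlap is large against the gene. Rac2 resembles Rac3 over 538 transcript bases at 83.8% identity, and Rac3 itself was low, at 6.63 CPM in knockout and 6.40 CPM in WT libraries on average.

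**Figure D3:**
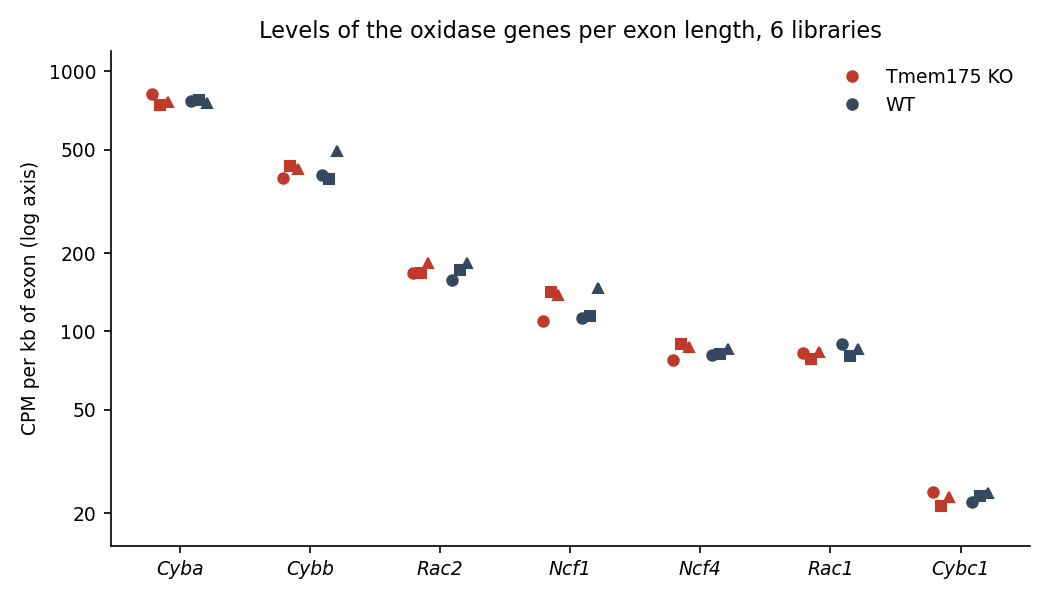
Level of each oxidase gene in CPM per kb of exon (log y axis) in 3 knockout (left, red) and 3 WT (right, blue) libraries; marker shape gives the replicate number. The genes run from Cyba, near 770 CPM per kb, to Cybc1, near 23, with Ncf4 and Rac1 at the same level.

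The balance between subunits did not separate the genotypes either. Ratios of 2 genes' CPM were compared in each library over 6 pairs fixed by role; gene length cancels in the difference between genotypes. None of the 6 pairs separated knockout from WT libraries. With 3 libraries against 3 the exact two-sided permutation test cannot go below p = 0.10, so a call was not possible. Leaving out 1 library changed the sign of 5 of the 6 differences, all but that of Ncf1 over Cybb. The p-values were 0.40 to 0.80, and 0.80 for all 6 pairs after Benjamini-Hochberg adjustment.

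Within the membrane pair, Cybb over Cyba was 2.68, 3.27 and 3.09 in knockout, against 2.89, 2.78 and 3.68 in WT libraries. The mean difference in log2 ratio was -0.04, smaller than the SD of 0.15 in knockout and 0.22 in WT libraries (exact permutation p = 0.80), and it ran from -0.12 to 0.083 without 1 library. Cybc1 over Cybb, the chaperone against its client, was 0.0447, 0.0357 and 0.0398 in knockout, against 0.0402, 0.0438 and 0.0349 in WT libraries. The lowest and the second highest of these ratios were both from WT wells. The log2 difference was 0.016 (exact permutation p = 0.80), and it ran from -0.073 to 0.096 without 1 library.

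Ncf1 over Cybb was 0.178, 0.207 and 0.207 in knockout, against 0.179, 0.187 and 0.187 in WT libraries. Knockout replicates 2 and 3 lay above all WT libraries and knockout replicate 1 below them. The log2 difference was 0.10, against an SD of 0.13 in knockout and 0.037 in WT libraries (exact permutation p = 0.40), and it ran from 0.058 without knockout replicate 3 to 0.17 without knockout replicate 1. Ncf4 over Ncf1 was 0.390, 0.347 and 0.348 in knockout, against 0.397, 0.394 and 0.321 in WT libraries, a log2 difference of -0.03 (exact permutation p = 0.80) that ran from -0.13 to 0.021 without 1 library.

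Rac2 outnumbered Rac1 in counts in each library. Rac2 over Rac1 was 1.39, 1.48 and 1.53 in knockout, against 1.22, 1.48 and 1.47 in WT libraries. WT replicate 1 was the low one, and the other 5 lay close together. The log2 difference was 0.08 (exact permutation p = 0.50), and it ran from -0.0070 without WT replicate 1 to 0.13 without WT replicate 2. Per kb of exon, Rac2 made up 66.9%, 68.2% and 68.9% of both Rac genes in knockout, against 63.9%, 68.2% and 68.0% in WT libraries. The same counts were also divided by the exon bases that no other gene shares. Rac2 then made up 49.6%, 51.1% and 51.9% in knockout, against 46.2%, 51.1% and 50.8% in WT libraries. The excess of Rac2 thus depends on how the overlap of Rac1 with Daglb is treated. Rac2 over Cybb was 0.229, 0.207 and 0.233 in knockout, against 0.212, 0.239 and 0.197 in WT libraries, a log2 difference of 0.05 (exact permutation p = 0.70) that ran from -0.014 without WT replicate 3 to 0.13 without WT replicate 2.

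The 7 genes differed in how much they varied over the 6 libraries. The highest library of Ncf1 was 1.33 times its lowest and that of Cybb 1.28 times, against a median of 1.15 over the 8249 genes averaging 10 CPM or more. For the other 5 the ratio was 1.10 to 1.17. Counting error was far smaller: the lowest count of Ncf1 was 9921 and that of Cybb 54544, which give counting CVs of 1.00% and 0.428%. Between wells of 1 genotype, Ncf1 had a CV of 13.5% in knockout and 15.4% in WT, and Cybb of 5.39% in knockout and 14.1% in WT libraries.

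Cybb, Ncf1 and Ncf4 were all higher in knockout replicates 2 and 3 and WT replicate 3 than in the other 3 libraries. Ncf1 deviated from its mean log2 CPM by -0.20, 0.17 and 0.13 in knockout and by -0.16, -0.15 and 0.21 in WT libraries. Cybb deviated by -0.10, 0.048 and 0.0084 in knockout and by -0.07, -0.12 and 0.24 in WT libraries. Ncf4 deviated by -0.11, 0.09 and 0.06 in knockout and by -0.043, -0.037 and 0.031 in WT libraries. Cyba, which pairs with Cybb as a protein, did not follow: its highest library was knockout replicate 1, where Cybb, Ncf1 and Ncf4 were all below their means. Among the cell type markers, Csf1r ran the same way, at 3768, 4518 and 4388 CPM in knockout and 3814, 3778 and 4600 CPM in WT libraries. Itgax, a marker on the dendritic cell list, ran the opposite way, at 177, 78.1 and 107 CPM in knockout and 179, 159 and 94.7 CPM in WT libraries. The macrophage marker Mertk did too, at 157, 128 and 133 CPM in knockout and 170, 161 and 142 CPM in WT libraries. Macrophage markers as a list thus did not share the pattern of Csf1r, and Cd68 and Adgre1 followed neither way. Cd68 stood at 1408, 1280 and 1368 CPM in knockout and 1364, 1368 and 1318 CPM in WT libraries. These libraries cut across genotype, the labels name no batch that matches them, and the part of these markers or of other differences between the wells was not tested.

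The genes with a library pattern most like that of Cybb were Ptp4a3, Prdx5, Osbpl3, Atg9a and Aida. Likeness was the root mean square difference of log2 CPM after centring each gene on its mean over 6 libraries, among 8242 genes, and it was 0.029 to 0.037 for these 5. Such a ranking over 6 libraries is a description of these wells. Ptp4a3, a protein tyrosine phosphatase, stood at 16.0, 18.2 and 18.3 CPM in knockout and 16.7, 15.9 and 20.2 CPM in WT libraries. Prdx5, a peroxiredoxin that removes peroxides, stood at 302, 323 and 333 CPM in knockout and 312, 307 and 387 CPM in WT libraries. Osbpl3 encodes an oxysterol-binding protein relative and Atg9a a membrane protein of autophagy. Among the other oxidase genes, Ncf1 was the nearest to Cybb, with a difference of 0.090 at position 735 among all genes compared, and Cyba the farthest, with 0.15 at position 5504. Ncf4 was at position 1110, so many genes outside the oxidase lay nearer to Cybb than either cytosolic subunit did.

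**Figure D4:**
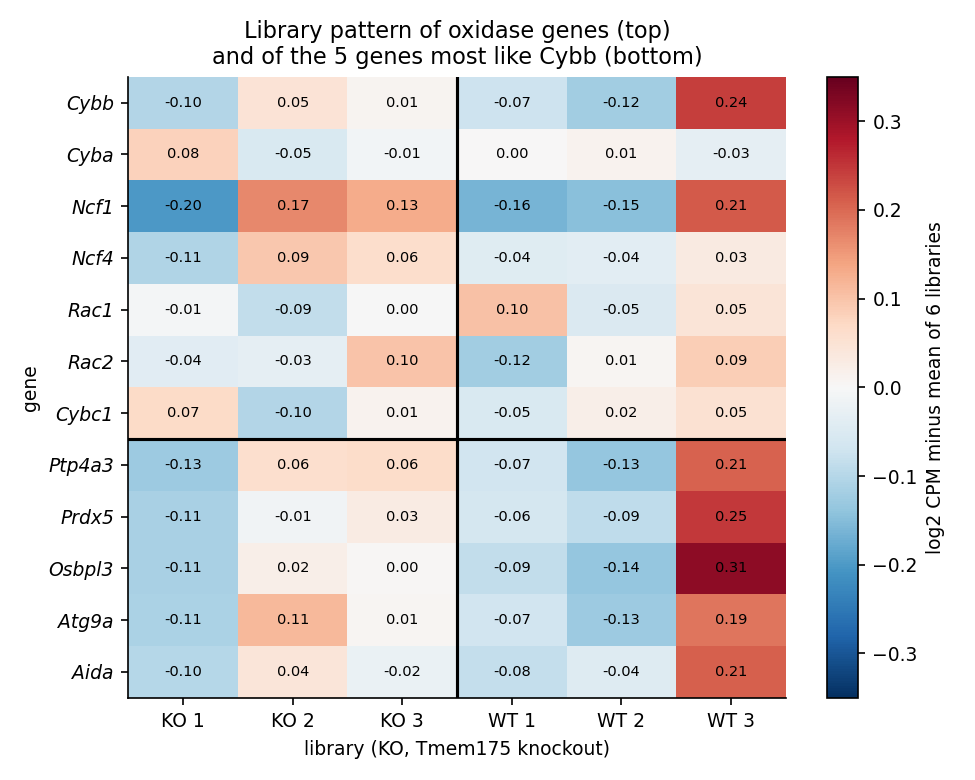
Log2 CPM of each gene minus its mean over the 6 libraries (colour and printed value), for the 7 oxidase genes above the line and the 5 genes most like Cybb below it; knockout libraries are left and WT libraries right. Cybb (0.24) and Ncf1 (0.21) are highest in WT replicate 3, while Cyba departs from its mean by 0.082 at most, in knockout replicate 1.

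The wider oxidase pathway was read from 64 genes in 7 lists, of which 54 passed the filter. In edgeR's test none of the 54 was called in either direction and 5 had an unadjusted p under 0.05, beside 0.103% and 5.44% of all genes tested. DESeq2 called 2 of the 54, beside 0.294% of all genes, and limma-voom 1, beside 0.110%. The groups did not overlap for 7 of the 54, beside the 10.8% of all genes given above. The median log2 fold change of the 54 was -0.0053.

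Other members of the NADPH oxidase family were nearly silent. Of 9 genes, 1 passed the filter: Noxo1, an organiser homologous to Ncf1, at 0.534 CPM in knockout and 0.588 CPM in WT libraries on average (log2 fold change -0.13, adjusted p = 0.979, edgeR). Nox1, a catalytic homologue of Cybb, had counts of 5 to 15 per library. Nox3, Nox4, Duox1, Duoxa2 and Noxa1 had a count of 0 in each of the 6 libraries, against 54544 to 75703 counts for Cybb.

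Regulators of Rac were expressed in both genotypes. Of 10 activators and inhibitors 2 had positive and 8 negative log2 fold changes, with a median of -0.016, and none was called. Vav2, an exchange factor that loads Rac with GTP, had the smallest p of the list, at 71.4 ± 8.63 CPM in knockout and 81.7 ± 5.77 CPM in WT libraries (SD, n = 3 each; log2 fold change -0.19, adjusted p = 0.908, edgeR). Dock2, the main Rac exchange factor of leukocytes, averaged 424 CPM in knockout and 427 CPM in WT libraries. Of 6 relatives of Rac none was called, and Rhoa had the smallest p, with a log2 fold change of -0.03 (adjusted p = 0.979, edgeR).

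None of the kinases and lipid enzymes that prime the oxidase was called. Of 12 tested 4 were positive and 8 negative, with a median of -0.014. The groups did not overlap for 2 of the 12, Pik3cd (lower in knockout) and Pik3c3 (higher), beside 10.8% of all genes tested. Pik3cd, a leukocyte phosphoinositide kinase, had the smallest p, at 242 CPM in knockout and 261 CPM in WT libraries on average (log2 fold change -0.11, adjusted p = 0.908, edgeR). Prkcd, a protein kinase C that phosphorylates Ncf1, averaged 546 CPM in knockout and 530 CPM in WT libraries, and Pik3c3, which makes the lipid bound by Ncf4, averaged 47.5 CPM in knockout and 45.0 CPM in WT libraries. Transcription factors known to drive oxidase genes gave 1 positive and 7 negative members of 8 tested, with a median of -0.06 and none called. Cebpb had the smallest p of these (log2 fold change -0.25, adjusted p = 0.932, edgeR), and Spi1, which encodes PU.1, averaged 467 CPM in knockout and 461 CPM in WT libraries.

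Enzymes that remove superoxide and peroxide gave 7 positive and 2 negative members of 9, with a median of 0.07 and none called. Sod1, the cytosolic superoxide dismutase, had the smallest p, at 156 CPM in knockout and 144 CPM in WT libraries on average (log2 fold change 0.11, adjusted p = 0.908, edgeR). It was the only 1 of the 9 whose groups did not overlap, beside 10.8% of all genes tested. Among 8 partners and negative regulators of the oxidase, 5 were positive and 3 negative, with a median of 0.0068. The proton channel gene Hvcn1, whose product balances the charge moved by the oxidase, averaged 120.0 CPM in knockout and 119.8 CPM in WT libraries. Nrros, whose product promotes the breakdown of Cybb, averaged 432 CPM in knockout and 426 CPM in WT libraries.

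S100a8 and S100a9, calcium-binding proteins that bring arachidonic acid to the oxidase in neutrophils, stood apart in that list. S100a8 averaged 174 CPM in knockout and 108 CPM in WT libraries, a log2 fold change of 0.70 with an SE of 0.10, which missed the threshold (adjusted p = 0.0521, edgeR). S100a9 averaged 294 CPM in knockout and 193 CPM in WT libraries, a log2 fold change of 0.61 with an SE of 0.11 (adjusted p = 0.152, edgeR). Each of the 3 knockout libraries was above all WT libraries for both genes. DESeq2 called both, and limma-voom called S100a8. The groups did not overlap for 4 of the 8 genes of that list, beside 10.8% of all genes tested. Sirpa and Msn were the others, with each knockout library below all WT libraries. Their log2 fold changes were small, -0.05 for Sirpa and -0.04 for Msn.

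Neutrophils also make the oxidase, so their markers are given beside the values above. Of 15 neutrophil markers, which include S100a8 and S100a9, 11 had positive and 4 negative log2 fold changes, with a median of 0.30; none was called, and 8 had an unadjusted p under 0.05 (edgeR), beside 5.44% of all genes tested. Their summed level was 1058 to 1157 CPM in knockout and 730 to 965 CPM in WT libraries, and no marker was at 0 in all libraries. Ly6g, a defining surface marker of neutrophils, averaged 0.368 CPM in knockout and 0.296 CPM in WT libraries. The groups did not overlap for 5 of the 15: S100a8, S100a9, Lcn2 and Mmp9 were higher in knockout and Mpo lower. Without S100a8 and S100a9, a choice made after seeing the values, the other 13 markers summed to 614 to 667 CPM in knockout and 485 to 620 CPM in WT libraries, which overlap. Csf3r held more of that sum than any other of the 13, at 208 CPM in knockout and 213 CPM in WT libraries on average. Lcn2 averaged 68.6 CPM in knockout and 47.6 CPM in WT libraries, and Mmp9 43.3 CPM and 33.1 CPM. Mpo, the myeloperoxidase of neutrophil granules, lay the other way, at 9.11, 7.49 and 7.23 CPM in knockout, against 13.6, 16.9 and 9.90 CPM in WT libraries. In bulk RNA, more cells of a type and more RNA per cell cannot be told apart. Markers of other lineages had lower sums than the macrophage markers, and most of their log2 fold changes were negative, with none called (edgeR). The sums were 518 to 836 CPM in knockout and 858 to 889 CPM in WT libraries for 8 dendritic cell markers, without overlap, and 13.1 to 20.4 CPM in knockout and 20.2 to 29.1 CPM in WT libraries for 7 mast cell and basophil markers. The sums for 10 markers of B, T and NK cells were 88.5 to 122 CPM in knockout and 117 to 179 CPM in WT libraries, and for 8 erythroid and megakaryocyte markers 99.6 to 149 CPM in knockout and 124 to 206 CPM in WT libraries. At an unadjusted p under 0.05 (edgeR) stood 5 of 6 tested mast cell and basophil markers (median log2 fold change -0.97). The groups did not overlap for 5 of these 6, beside 10.8% of all genes tested. Those 5 include Kit, which was higher in knockout (log2 fold change 0.23), and leave out Gata2, whose groups overlapped. At the same level of p stood 4 of 5 erythroid and megakaryocyte markers (median -0.52). So did 3 of 6 B, T and NK cell markers (median -0.40, all 6 negative) and 3 of 8 dendritic cell markers (median -0.36). The sum of 9 macrophage markers was 33000 to 36803 CPM in knockout and 51803 to 60566 CPM in WT libraries. Most of that sum was Lyz2, the gene modified with Cre and the only one called. Lyz2 stood at 23166 to 26123 CPM in knockout and 41780 to 49822 CPM in WT libraries. Of the 9 log2 fold changes 4 were positive and 5 negative, with a median of -0.02. The part of these cells in the oxidase values was not tested.

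**Figure D5:**
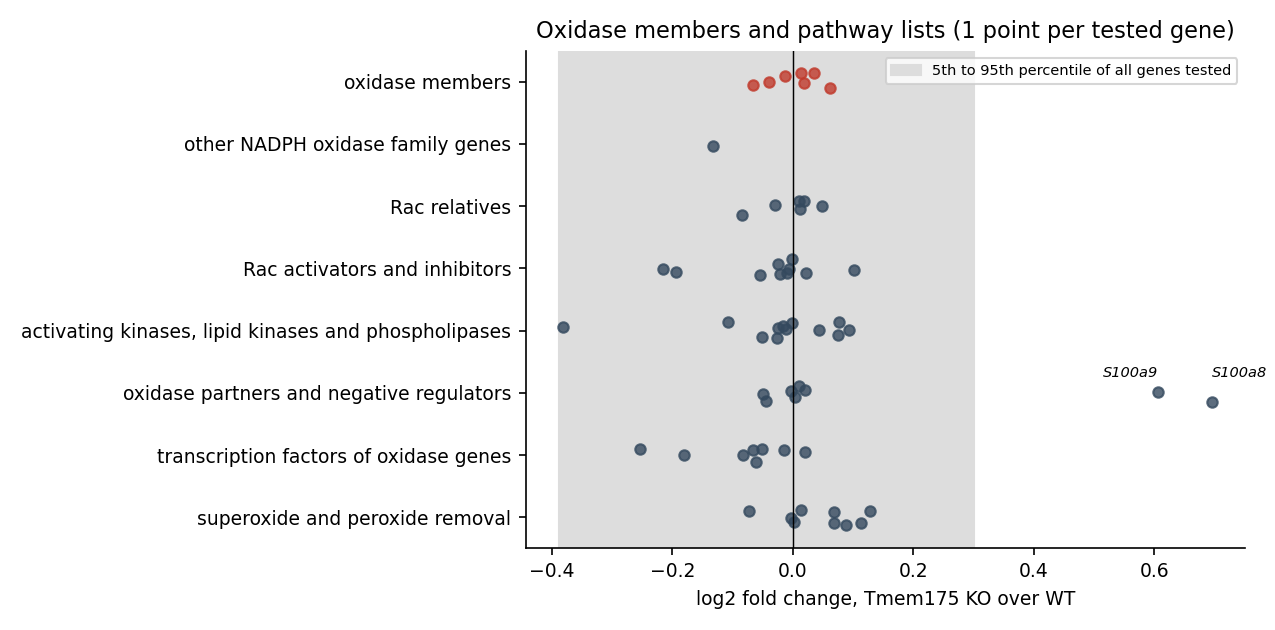
Log2 fold change of knockout over WT (x axis) of the 7 oxidase genes (red) and of each tested gene of 7 pathway lists (blue); the grey band spans the 5th to 95th percentile of all genes tested, -0.39 to 0.30. The 7 oxidase genes lie between -0.07 and 0.06, and S100a9 (0.61) and S100a8 (0.70) lie to the right of the band.

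In genome position the 7 genes are spread over 5 chromosomes of GRCm38 (GENCODE M21). Cybb (ENSMUSG00000015340) spans 9435252 to 9487771 on chromosome X, and Cyba (ENSMUSG00000006519) spans 122424776 to 122432930 on chromosome 8. Ncf1 (ENSMUSG00000015950) spans 134220053 to 134229625 and Rac1 (ENSMUSG00000001847) 143503634 to 143528036 on chromosome 5, the chromosome of Tmem175. Ncf1 starts 25.6 Mb and Rac1 34.9 Mb beyond the end of Tmem175. Ncf4 (ENSMUSG00000071715) spans 78244801 to 78262580 and Rac2 (ENSMUSG00000033220) 78559167 to 78572783 on chromosome 15, and Cybc1 (ENSMUSG00000039294) spans 121222588 to 121229322 on chromosome 11. All 7 are protein-coding genes. The 2 genes on the chromosome of Tmem175 had log2 fold changes of opposite sign, 0.06 for Ncf1 and -0.07 for Rac1, both within their intervals around 0.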

How the data were processed

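The authors deposited unnormalised read counts for Ensembl genes, with 1 column for each of 6 libraries. The submitters' processing notes name HISAT2, featureCounts and GRCm38; no version, annotation release or strand setting is given. TRIzol lysis and a SMARTer kit are named per the labels' protocols.

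Symbols, exon lengths and positions came from GENCODE M21, which matched 55240 of 55421 IDs. After TMM scaling and a filterByExpr filter, genotypes were compared with edgeR 4.0.16 (R 4.3.3, quasi-likelihood test, genotype as the only term, two-sided). P-values were Benjamini-Hochberg adjusted over 13588 genes and called under 0.05. SEs came from the F statistic, and 95% intervals from them. The common biological coefficient of variation was 0.0744. Similar transcripts (at least 300 aligned bases and 80% identity) were sought with BLAST 2.17.0. Ratios were tested by exact permutation in scipy 1.17.1. The edgeR fit was also run on simulated counts with known changes, drawn with means and dispersions from the real data, which tested the script.

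Alternatives were DESeq2 1.42.0, limma-voom (limma 3.58.1), other scalings and filters, the replicate number as a block, leaving out each library, and other lengths; the length outside other genes, the order within each genotype and the neutrophil sum without S100a8 and S100a9 were added after seeing the data. Members and lists were chosen with earlier results of these data known. The genes named are the 7, the 5 most like Cybb at a mean of at least 10 CPM, called genes or the smallest p of each list, and genes added for their role after values were seen (such as Dock2, Prkcd, Pik3c3, Spi1, Hvcn1, Nrros, Nox1, S100a9, Ly6g, Mpo, Csf1r and Itgax). Of the list of other oxidase genes, 1 gene is not reported here. Replicates were compared for duplicates, and each pair differed beyond sampling noise (chi-square over its degrees of freedom 3.89 to 19.6).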

Additional observations from a re-analysis of the deposited data

How the results depend on the processing

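None of the 7 oxidase genes was called under any of the 14 alternatives (0 higher and 0 lower). As their log2 fold changes lie near 0, some changed sign: with library totals Cybb was at 0.0070 and Cybc1 at 0.029. Without 1 library the ranges were -0.11 to 0.083 for Cybb, -0.024 to 0.045 for Cyba, -0.0038 to 0.20 for Ncf1, -0.0017 to 0.096 for Ncf4, -0.11 to -0.030 for Rac1, -0.036 to 0.068 for Rac2 and -0.050 to 0.035 for Cybc1. Pathway genes called higher numbered 0 by edgeR, 1 with library totals, 2 with DESeq2, 1 with limma-voom, 2 without a filter, 2 with the replicate block and 0 to 1 without 1 library; the calls were S100a8 and, where 2, S100a9. S100a8 was called in 6 of 14 alternatives, with adjusted p from 7.36e-15 to 0.299, and the call without 1 library was made without WT replicate 3. None was called lower.

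The replicate numbers mark no shared animal or batch in the labels, and deviations of same-numbered libraries correlated at 0.057, -0.12 and 0.039, so the pairing is a shared number only; with the block 17 genes were called instead of 14. All genes called numbered 40 with DESeq2, 151 without a filter and 5 at a mean of at least 10 CPM, and 4 to 12 without 1 library. The differences in the 6 ratios moved by less than the pooled within-genotype SD under every alternative. With the replicate block their values could not move, because every replicate number stands in both genotypes. Without 1 library, 5 of the 6 changed sign: Cybb over Cyba and Cybc1 over Cybb without knockout replicate 1 or WT replicate 3, Ncf4 over Ncf1 without WT replicate 1 or 2, Rac2 over Rac1 without WT replicate 1 and Rac2 over Cybb without WT replicate 3. Over coding length the order from high to low became Cybb 1, Cyba 2, Rac2 3, Rac1 4, Ncf1 5, Cybc1 6 and Ncf4 7. Over exon length outside other genes, Rac1 was at 4, Ncf1 at 5 and Ncf4 at 6. In WT libraries alone, and without knockout replicate 2 or 3, Rac1 was at 5 and Ncf4 at 6. The causes were not tested beyond the lengths used. With 3 wells per genotype, the intervals limit what could be seen: for Ncf1 a fold of 0.869 to 1.25 could not be told from none.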
